A study of Mus musculus with 3 samples.

Results

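The genes described here are 9 genes that make, carry or break down retinoic acid, followed in sorted cells of forming mouse digits at the time joints appear. They were taken by symbol (Aldh1a1, Aldh1a2, Aldh1a3, Rdh10, Stra6, Rbp4, Cyp26b1, Crabp1 and Crabp2), and all 9 were listed among the 23284 gene symbols of each expression file. RNA-seq was made from 3 libraries, 1 for each of 3 sorted populations, and every mouse is given as C57/bl6. The Sox9+ library came from digit cells at E13.5 (E for embryonic day) of Sox9-eGFP/+ embryos, in which a green fluorescent reporter marks cells expressing Sox9, the leading transcription factor of cartilage. Its limb is not named in the labels. At E14.5 the Lgr5+ and Lgr5- libraries were made from digits of the forelimb of Lgr5-eGFPCreERT2/+ embryos, and hold the GFP-positive cells, called interzone cells in the labels, and the GFP-negative cells, called non-interzone. The interzone is the band of cells at the site of a future joint. The Lgr5 allele also carries CreERT2, a recombinase that needs tamoxifen. Both reporters are given as heterozygous, the sort was by fluorescence and not by position, and the number of embryos pooled is not given in the sources used here.

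Retinoic acid is made from vitamin A inside tissues. Retinol circulates bound to the carrier Rbp4, enters cells through the membrane receptor Stra6, is oxidised to retinal by Rdh10, and is oxidised again to retinoic acid by an enzyme of the Aldh1a family. Inside the cell the acid is bound by Crabp1 and Crabp2, acts through the nuclear receptors of the Rar and Rxr families, and is removed by hydroxylases of the Cyp26 family. In the limb bud Cyp26b1 is known for keeping the distal tissue low in retinoic acid, Aldh1a2 for its expression between the digits, and loss of retinoic acid signalling is known to be part of cartilage differentiation.

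Values are FPKM (fragments relative to transcript length and to all mapped fragments), so levels of different genes can be set side by side within a library. 1 was added to each FPKM before a fold was taken, so folds of weakly expressed genes are understated. A pair of libraries counted as measuring a gene when the higher value reached 1 FPKM, and 2-fold was the threshold for a difference. As each population had 1 library and no replicate, there is no error and no p-value, and what is compared are libraries. The 3 comparisons share libraries and are not independent. The Sox9+ library also differs from the other libraries in embryonic day and reporter line, and its limb is not named. In the comparisons with it, population, stage, reporter allele and limb cannot be told apart. FPKM summed to between 534025 and 593871 per library, 11924 to 12002 genes reached 1 FPKM, and no read counts are given, so depth is unknown. The sort genes followed the labels for the Lgr5 line, with Lgr5 at 26.8 FPKM in Lgr5+ cells, 1.36 in Lgr5- cells and 3.48 in Sox9+ cells. For the joint gene Gdf5 the values were 614.8, 71.7 and 59.9 FPKM, listed likewise. Sox9 was at 254.7 FPKM in Sox9+ cells and higher, at 332 FPKM, in Lgr5+ cells, whereas the cartilage collagen gene Col2a1 was highest in Sox9+ cells at 5304 FPKM.

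The Lgr5+ library held less RNA of most of these genes than the Lgr5- library. Aldh1a2, Stra6, Rdh10, Crabp1 and Crabp2 were each at least 2-fold lower, and Rbp4 alone of the 9 was at least 2-fold higher. Cyp26b1 hardly differed. Aldh1a1 was close to 0 in every library. The Lgr5+ and Sox9+ libraries differed by 2-fold in only Aldh1a2 and Rbp4, and the Lgr5- library stood at least 2-fold above the Sox9+ library in Rdh10, Stra6, Crabp1 and Crabp2.

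**Figure D1:**
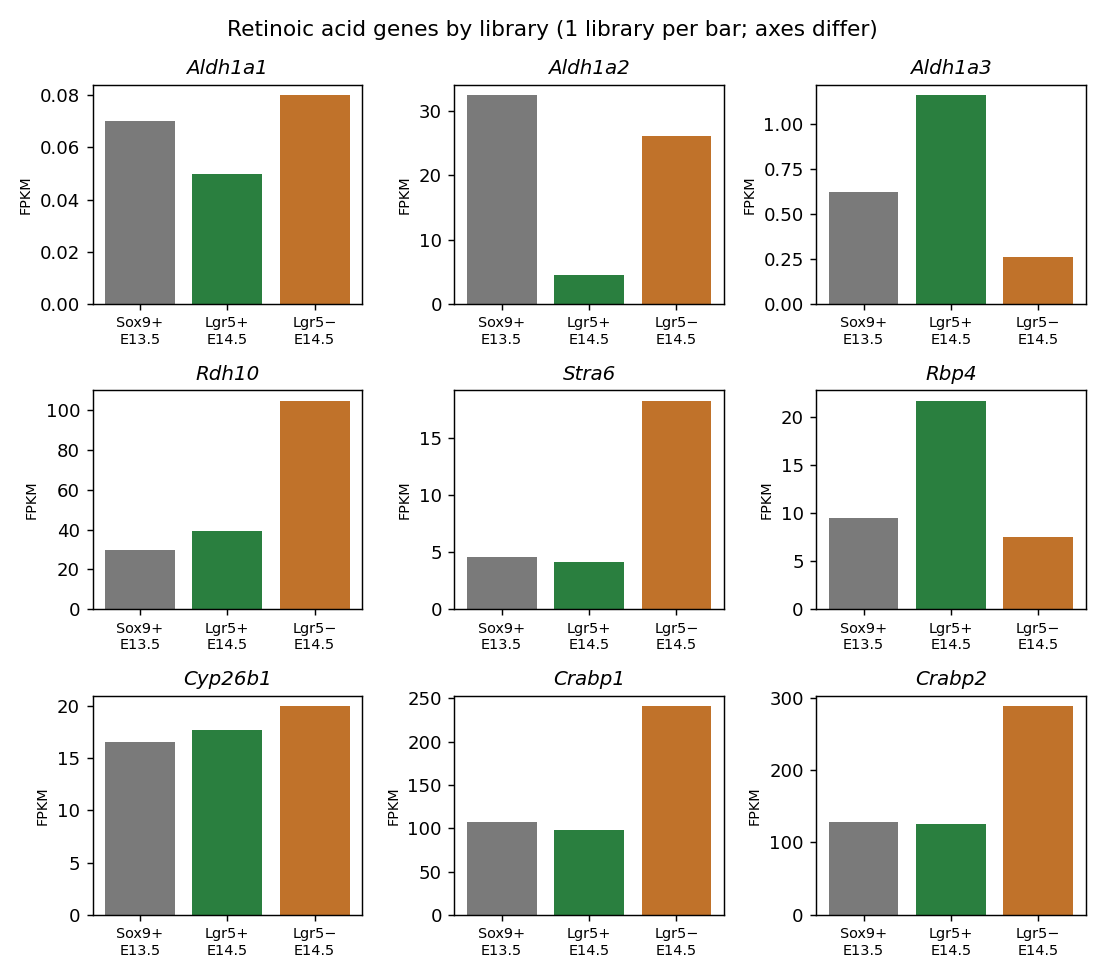
FPKM of each of the 9 genes (vertical axes, starting at 0 and differing between panels) in the Sox9+ E13.5, Lgr5+ E14.5 and Lgr5- E14.5 libraries, 1 library per bar and no error bars. Aldh1a2 is low in Lgr5+ cells alone (4.41 FPKM), Rdh10, Stra6, Crabp1 and Crabp2 are high in Lgr5- cells alone, Rbp4 is highest in Lgr5+ cells, and Cyp26b1 lies between 16.5 and 20 FPKM.

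Counted over the set, 8 of the 9 genes were measured between the Lgr5+ and Lgr5- libraries, Aldh1a1 being the exception. At least 2-fold lower in Lgr5+ cells were 5 of the 9, against 1.89% of all 12438 genes measured, and at least 2-fold higher was 1 of the 9, against 3.64% of all genes. The median log2 ratio of the 8 measured genes was -1.24, beside 0.08 over all measured genes. Between the Lgr5+ and Sox9+ libraries 8 genes were measured, of which 1 was at least 2-fold lower and 1 at least 2-fold higher, against 3.96% and 4.33% of 12492 genes. Their median was 0.03, beside 0.06 over all. Between the Lgr5- and Sox9+ libraries 7 genes were measured, of which 4 were at least 2-fold higher and none lower, against 3.08% and 4.94% of 12482 genes. Their median was 1.16, beside -0.01 over all.

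**Figure D2:**
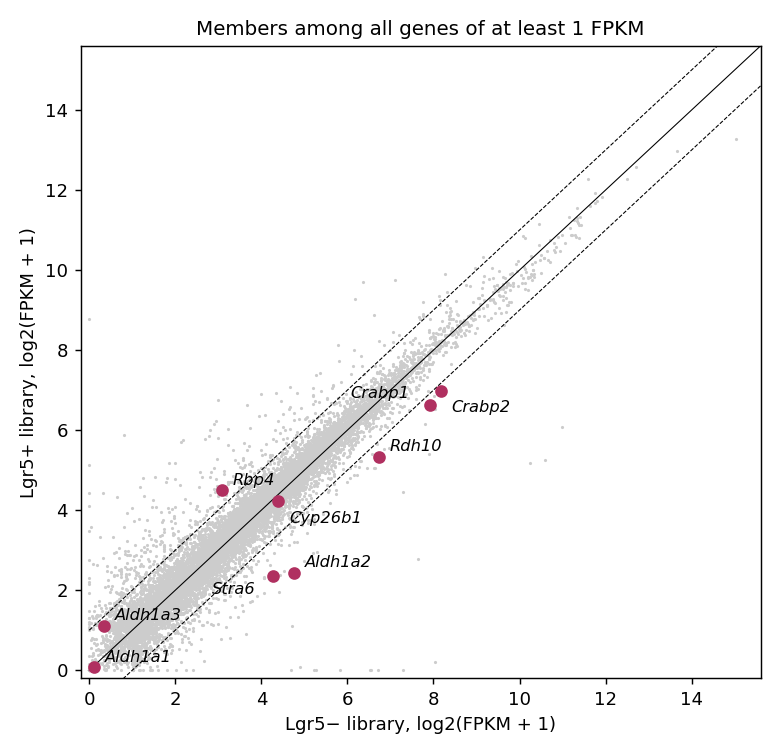
Each grey point is a gene of at least 1 FPKM in any of the 3 libraries, placed by its log2(FPKM + 1) in the Lgr5- library (horizontal) and the Lgr5+ library (vertical), with the 9 retinoic acid genes as named red points. The solid line marks equal values and the dashed lines 2-fold; Aldh1a2, Stra6, Rdh10, Crabp1 and Crabp2 fall below the lower dashed line, Rbp4 above the upper one and Cyp26b1 near the solid line.

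Of the synthesis enzymes among the 9 genes, Rdh10 and Aldh1a2 had the highest RNA levels. Aldh1a2 (ENSMUSG00000013584, GRCm38 chromosome 9, 71215789 to 71296243, plus strand), the principal retinal dehydrogenase of the early embryo, stood at 32.5 FPKM in Sox9+ cells, 26.1 FPKM in Lgr5- cells and 4.41 FPKM in Lgr5+ cells. The Lgr5+ library was the low one, 5.01-fold below Lgr5- cells and 6.18-fold below Sox9+ cells (log2 ratios of -2.33 and -2.63). The Lgr5- and Sox9+ libraries differed by 1.23-fold. Among genes of at least 1 FPKM, Aldh1a2 lay at percentile 78.3 in Sox9+ cells and 74.4 in Lgr5- cells, but at percentile 25.2 in Lgr5+ cells. Its difference passed 2-fold in both comparisons of the Lgr5+ library under all 11 alternative settings tried. Those settings that change only a minimum or a threshold leave the ratio as it was, so only the pseudocounts and scalings could move it.

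Rdh10 (chromosome 1, 16105774 to 16133734, plus strand), which carries out the first oxidation step from retinol to retinal, followed another order. It stood at 29.8 FPKM in Sox9+ cells, 39.4 FPKM in Lgr5+ cells and 104.6 FPKM in Lgr5- cells. Here the Lgr5- library was the high one, 2.61-fold above Lgr5+ cells and 3.43-fold above Sox9+ cells, while the Lgr5+ and Sox9+ libraries were within 1.31-fold. The ratio of Rdh10 to Aldh1a2 FPKM was 0.919 in Sox9+ cells, 4.01 in Lgr5- cells and 8.94 in Lgr5+ cells. These ratios and those below were computed after the values were seen and are of RNA, not of enzyme activity.

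The other Aldh1a genes were weak. Aldh1a3 (chromosome 7, 66390890 to 66427517, minus strand) measured 1.16 FPKM in Lgr5+ cells, 0.62 FPKM in Sox9+ cells and 0.26 FPKM in Lgr5- cells. It was highest where Aldh1a2 was lowest. Its 1.71-fold difference between the Lgr5+ and Lgr5- libraries was below 2-fold, but passed it with a pseudocount of 0.1 or 0.5 or after rescaling to TPM (log2 ratio of up to 1.81), and both values are near the pseudocount. Aldh1a3 is known in surface epithelia. Of 12 listed epidermal markers, 6 were at least 2-fold higher in Lgr5+ than in Lgr5- cells and none lower. The shares of all genes were 3.64% and 1.89%. The summed level was 67.4 FPKM against 28.7 FPKM. Running the other way were Epcam (3.9 against 8.76 FPKM), Krt18 (4.93 against 9.41), Grhl3 (0.69 against 1.82) and Krt8 (0.77 against 1.3). These were within 2-fold once 1 was added to each FPKM. No listed epidermal marker was at 0 in any library, the sum was 68.1 FPKM in Sox9+ cells, and the part of the epidermis in the Aldh1a3 values was not tested. Aldh1a1 (chromosome 19, 20492715 to 20643465, plus strand) stood at 0.05, 0.07 and 0.08 FPKM in the Lgr5+, Sox9+ and Lgr5- libraries and was measured in no pair. Of the 50-base stretches of its longest transcript, 6.54% also occur in Aldh1a7, and no other of the 9 genes shared any with another gene.

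The RNA of the retinol carrier and that of the retinol receptor ran in opposite directions between the Lgr5+ and Lgr5- libraries. Stra6 (chromosome 9, 58063788 to 58153996, plus strand), the receptor through which retinol enters cells, stood at 4.58 FPKM in Sox9+ cells, 4.13 FPKM in Lgr5+ cells and 18.3 FPKM in Lgr5- cells. The Lgr5- library stood apart, 3.75-fold above Lgr5+ cells and 3.45-fold above Sox9+ cells, and these 2 lower libraries were within 1.09-fold. Rbp4 (chromosome 19, 38116629 to 38125281, minus strand), the secreted retinol carrier, stood at 9.44 FPKM in Sox9+ cells, 21.6 FPKM in Lgr5+ cells and 7.51 FPKM in Lgr5- cells. The Lgr5+ library was the high one, 2.66-fold above Lgr5- cells and 2.17-fold above Sox9+ cells.

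Rbp4 is best known as a liver product, so liver and yolk sac serum protein genes were read beside it. Of 8 listed genes, Serpina1a and Fgb were at 0 in every library and Afp and Apob in 2 of 3, and Alb, which encodes albumin, was at 0.18 to 0.31 FPKM. The summed level of the list was 9.31 FPKM in Lgr5+ cells, 4.41 FPKM in Lgr5- cells and 2.86 FPKM in Sox9+ cells, most of it from the transferrin gene Trf (6.43, 2.65 and 1.63 FPKM). Of the 2 genes of the list measured in these pairs, Trf was at least 2-fold higher in Lgr5+ than in Lgr5- and in Sox9+ cells, as Rbp4 was. The shares of all genes were 3.64% and 4.33%. Ttr, the plasma partner of Rbp4, was listed at 0 in Lgr5+ cells and at 0.05 and 0.66 FPKM in the Lgr5- and Sox9+ libraries. The part of liver or yolk sac RNA in the Rbp4 values was not tested.

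The binding proteins were by far the most abundant of the 9. Crabp1 (chromosome 9, 54764748 to 54773110, plus strand), which holds retinoic acid in the cytoplasm, stood at 107.6 FPKM in Sox9+ cells, 97.6 FPKM in Lgr5+ cells and 240.9 FPKM in Lgr5- cells. Crabp2 (chromosome 3, 87948666 to 87953376, plus strand), which is known to carry retinoic acid to its nuclear receptors, stood at 128 FPKM, 125.5 FPKM and 287.9 FPKM in the same order. For both genes the Lgr5- library was high and the other pair nearly level, with Crabp1 2.45-fold and Crabp2 2.28-fold above Lgr5+ cells and 2.23-fold and 2.24-fold above Sox9+ cells. The ratio of Crabp1 to Crabp2 FPKM stayed near one value in all 3 libraries, at 0.841 in Sox9+, 0.777 in Lgr5+ and 0.837 in Lgr5- cells. The lowest percentile of either gene among genes of at least 1 FPKM was 92.8, that of Crabp1 in Lgr5+ cells. The small differences between the Lgr5+ and Sox9+ libraries in Crabp1, Crabp2 and Stra6 (log2 ratios of -0.14, -0.03 and -0.12) turned positive, to at most 0.12, when the libraries were rescaled to TPM.

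Of the breakdown enzymes, Cyp26b1 was nearly even and Cyp26a1, described below with the other genes of the pathway, was not. Cyp26b1 (chromosome 6, 84571414 to 84593908, minus strand), the hydroxylase that clears retinoic acid in the limb, stood at 16.5 FPKM in Sox9+ cells, 17.7 FPKM in Lgr5+ cells and 20 FPKM in Lgr5- cells. The highest and lowest were within 1.21-fold in FPKM, and the log2 ratio of Lgr5+ over Sox9+ cells was 0.1, with 0.25 after rescaling to TPM and -0.00066 with upper-quartile scaling. The ratio of Aldh1a2 to Cyp26b1 FPKM was 1.96 in Sox9+ cells, 1.31 in Lgr5- cells and 0.249 in Lgr5+ cells. The synthesis enzyme had the higher level of the pair in the Sox9+ and Lgr5- libraries and the lower level in Lgr5+ cells.

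**Figure D3:**
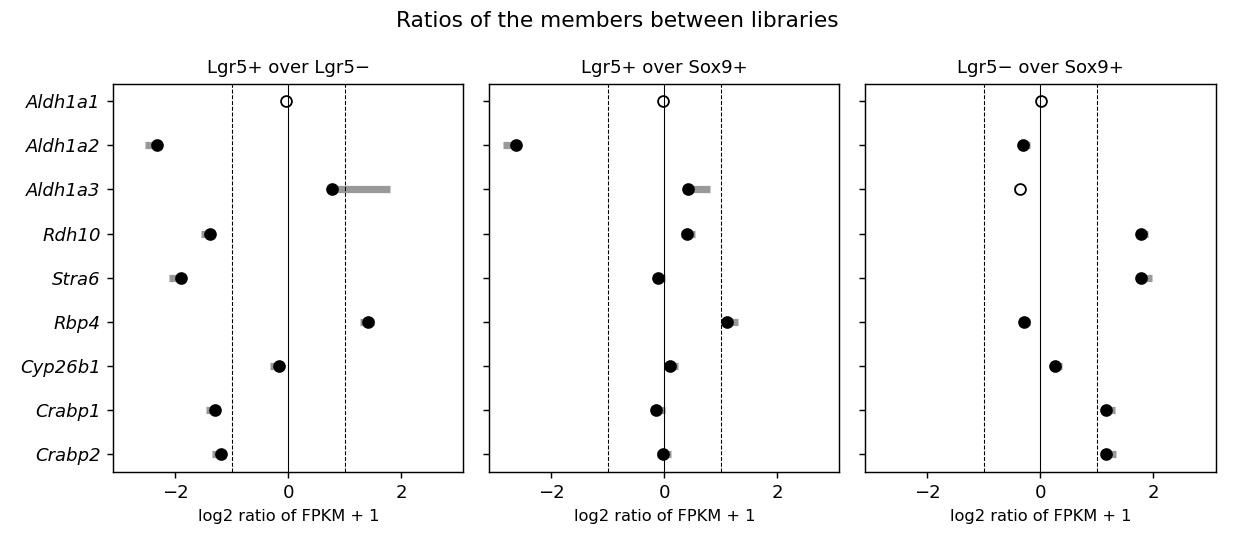
Log2 ratio of FPKM + 1 (horizontal axes) for each of the 9 genes in the 3 pairs of libraries. Points are the values as deposited, open where the gene was under 1 FPKM in both libraries. Grey bars span the alternative settings in which the gene was measured in that pair, which for Aldh1a1 is 1 setting. Dashed lines mark 2-fold: 5 genes lie left of the lower line and 1 right of the upper line for Lgr5+ over Lgr5-, against 1 and 1 for Lgr5+ over Sox9+, and 0 and 4 for Lgr5- over Sox9+.

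Markers of the tissues that the GFP-negative sort could hold were read beside these differences. Interdigit and distal mesenchyme markers summed to 485.4 FPKM in Lgr5- cells, 287.3 FPKM in Lgr5+ cells and 290.4 FPKM in Sox9+ cells. Of the 12, 4 were at least 2-fold lower in Lgr5+ than in Lgr5- cells and none higher, against 1.89% and 3.64% of all genes. The 4 were Tbx2, Tbx3, Bmp7 and Dkk1, and Tbx3, a T-box gene of the limb margins and interdigits, stood at 24.1, 7.79 and 13 FPKM in the Lgr5-, Lgr5+ and Sox9+ libraries. None of the 12 was at 0. The nearly equal sums of the Lgr5+ and Sox9+ libraries came from markers that ran both ways, with Mmp11 at 77.6 FPKM in Lgr5+ and 29.5 FPKM in Sox9+ cells and Bmp2 at 16.1 and 60.7 FPKM, and Bmp2 and Bambi were highest in Sox9+ and not in Lgr5- cells. Dermis markers summed to 595.8, 486.6 and 501.6 FPKM, and perichondrium markers to 1426, 1649 and 1186 FPKM, in the order Lgr5-, Lgr5+ and Sox9+. Most of the dermis sum was the collagen gene Col3a1 (416.3, 341.7 and 367.7 FPKM). Of the 8 dermis markers, 2 (Twist2 and Dkk2) were at least 2-fold lower in Lgr5+ than in Lgr5- cells and none higher, against 1.89% and 3.64% of all genes. Lum ran the other way within 2-fold (96.5 FPKM in Lgr5+ and 68.9 FPKM in Lgr5- cells). Most of the perichondrium sum was the collagen gene Col1a1 (997.9, 1198 and 769.2 FPKM), and single markers ran otherwise. Of the 10, Runx2, Sp7, Dlx5, Twist1 and Alpl were at least 2-fold lower in Lgr5+ than in Lgr5- cells. Foxc1 and Fgfr2 were at least 2-fold higher, and the median log2 ratio of the list was -0.61. The shares of all genes were 1.89% lower and 3.64% higher. Runx2, Sp7, Dlx5 and Alpl, which are known from bone formation, were also at least 2-fold lower in Lgr5+ than in Sox9+ cells, as Aldh1a2 was. Postn (82 against 35.5 FPKM) and Fgfr2 (145.3 against 70.3 FPKM) of the same list were at least 2-fold higher in that pair. The median log2 ratio of the list there was -0.34, and the shares of all genes were 3.96% lower and 4.33% higher. Red blood cell markers summed to 3976 FPKM in Lgr5- cells against 150.3 FPKM in Lgr5+ cells and 140.1 FPKM in Sox9+ cells, endothelial markers to 12.9, 9.55 and 5.36 FPKM, muscle markers to 26.6, 98 and 16.9 FPKM and macrophage markers to 44.2, 84.7 and 11.3 FPKM. Chondrocyte markers summed to 2112, 3367 and 8242 FPKM, interzone markers to 491.9, 1711 and 621.5 FPKM and Schwann cell and melanocyte markers to 7.98, 12.9 and 23 FPKM in that order. Most of the chondrocyte sum was Col2a1 (1401, 2253 and 5304 FPKM). Of the 12 chondrocyte markers, 3 were at least 2-fold higher and 2 at least 2-fold lower in Lgr5+ than in Lgr5- cells. For the 12 interzone markers these counts were 9 and 0, and the shares of all genes were 3.64% and 1.89%. Of these lists, Tcf21 (dermis), Pax7 (muscle), Aif1 (macrophages), Foxd3 and Dct (Schwann cells and melanocytes) were listed at 0 in at least 1 library. In a sorted population a smaller share of cells of a type and less RNA per cell cannot be told apart, and the part of these tissues in the differences of the 9 genes was not tested.

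The other genes of the pathway were taken from 5 lists of 55 genes, of which 54 were found in the files (Rbpr2 had no match) and 20 were under 1 FPKM in every library. Most of the remaining 34 were nearly level. Between the Lgr5+ and Lgr5- libraries, 31 were measured, 2 were at least 2-fold higher, 2 at least 2-fold lower and 27 within 2-fold. The shares of all genes were 3.64% higher and 1.89% lower. The median log2 ratio of the 31 was -0.02. Between the Lgr5+ and Sox9+ libraries none of 32 was at least 2-fold higher and 2 were lower, against 4.33% and 3.96% of all genes. For the Lgr5- over the Sox9+ library 2 of 34 were higher and 3 lower, against 3.08% and 4.94% of all genes.

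Short sequences are shown for a pair of retinoic acid response genes that ran in opposite directions, Rarb, which encodes a retinoic acid receptor, and Cyp26a1, which encodes a hydroxylase. Retinoic acid receptors are known to bind direct repeats of a 6-base half-site. RefSeq promoter windows (GRCm38.p6, the 250 bases before each start site) were searched on both strands for the half-sites AGGTCA, the variant GGGTCA, the variant AGTTCA and the variant GGTTCA, and for 2 of these in the same direction with 1 (DR1), 2 (DR2) or 5 (DR5) bases between them. A DR5 was found in the window of Rarb and in that of Cyp26a1, each printed below 5′ to 3′ as read on the strand of the repeat, with its half-sites in capitals.
Rarb: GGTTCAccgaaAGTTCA
Cyp26a1: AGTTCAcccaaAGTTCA
The Rarb element lies at chr14:16575513-16575529 on the minus strand, the strand of the gene, 36 bases before the start site and inside an exon of another annotated Rarb transcript. The Cyp26a1 element lies at chr19:37697776-37697792 on the strand opposite to the gene, 15 bases before the start site. In its surroundings, read on the strand of the gene from chr19:37697754-37697797 with the element in capitals, it appears as follows.
Cyp26a1 promoter: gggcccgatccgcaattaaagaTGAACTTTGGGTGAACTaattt
A DR5 of these half-sites occurred in 29 of 32851 promoter windows (0.0883%), a DR1 in 0.164% and a DR2 in 0.174%, whereas a single half-site occurred in 38.6%. Among the 9 genes, 6 had windows in the table (Aldh1a1, Aldh1a2, Stra6, Rbp4, Cyp26b1 and Crabp1), and none of these windows held a DR1, DR2 or DR5. Single half-sites were found in 1 of 2 windows of Aldh1a1 and 1 of 2 windows of Rbp4. Aldh1a3, Rdh10 and Crabp2 had no entry. For Aldh1a1, Rbp4 and Cyp26b1 the bases from the RefSeq start site on opened no transcript of the gene in the GENCODE annotation. Their windows may therefore not be the bases before a start site of that annotation. Of the 13 listed response genes, 9 had windows, and Rarb and Cyp26a1 were the only ones of these with a DR5. A match is a description of letters, and its absence says only that these letters are not in the window.

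The nuclear receptors that read retinoic acid were present in all 3 libraries. Rarg, the receptor known for its expression in cartilage and limb, was the most abundant, at 60.2, 57.8 and 54.9 FPKM in the Sox9+, Lgr5+ and Lgr5- libraries, and Rara stood at 14.1, 12.7 and 18.6 FPKM. Rxra (21.8, 25.2 and 25.6 FPKM) and Rxrb (37.2, 50 and 44.6 FPKM), partners of the Rar proteins, differed by less than 2-fold as well. Rxrg, the third partner, stood at 4.78, 7.22 and 2.31 FPKM and was 2.48-fold higher in Lgr5+ than in Lgr5- cells. Rarb, which is both a receptor and a known target of retinoic acid, stood at 6.41 FPKM in Sox9+ cells, 8.6 FPKM in Lgr5+ cells and 20.9 FPKM in Lgr5- cells. It was 2.28-fold higher in Lgr5- than in Lgr5+ cells and 2.96-fold higher than in Sox9+ cells. Exons of Top2b and Gm48162 on the opposite strand together overlap 38.4% of its exonic bases, and the library kit does not mark the strand. Reads of these genes and of Rarb could thus be mixed there. Top2b stood at 44.6, 43.4 and 38.3 FPKM in the Sox9+, Lgr5+ and Lgr5- libraries, and the part of its reads in the Rarb values was not tested.

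Among the enzymes of the pathway, Dhrs3, which reduces retinal back to retinol and is itself known to be induced by retinoic acid, stood at 34.2, 61.2 and 62.1 FPKM in the Sox9+, Lgr5+ and Lgr5- libraries. It did not separate the 2 libraries of E14.5. Of 18 listed enzymes of retinol and retinal conversion, 8 to 10 were measured in a pair and none differed by 2-fold on the scale of FPKM + 1. This rests on the added 1 for 2 of them. Akr1b3, an aldo-keto reductase, stood at 15.1, 31 and 15.3 FPKM in the Sox9+, Lgr5+ and Lgr5- libraries and was 1.98-fold higher in Lgr5+ than in Sox9+ cells on that scale, but 2.05-fold in FPKM itself. Rdh12, a retinal reductase, stood at 1.27, 3.23 and 1.3 FPKM, 1.86-fold higher in Lgr5+ than in Sox9+ cells on that scale and 2.54-fold in FPKM.

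Cyp26a1, the hydroxylase whose promoter element is printed above, ran against Rarb. It stood at 12 FPKM in Sox9+ cells, 8.96 FPKM in Lgr5+ cells and 3.56 FPKM in Lgr5- cells. The Lgr5- library was the low one, 2.18-fold below Lgr5+ cells and 2.86-fold below Sox9+ cells. The 2 response genes that hold a DR5 in the window searched were thus in opposite order over the 3 libraries, Rarb highest and Cyp26a1 lowest in Lgr5- cells, where Rdh10, Stra6, Crabp1 and Crabp2 were highest. The summed RNA of Cyp26b1 and Cyp26a1 is not given as a total of breakdown, since the third member, Cyp26c1, stood at 0.06 to 0.08 FPKM and the enzymes differ in activity.

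Response genes as a list showed no common direction between the Lgr5+ and Lgr5- libraries, with 7 of 13 measured and a median log2 ratio of -0.003. Of these, 1 was at least 2-fold higher and 1 at least 2-fold lower, against 3.64% and 1.89% of all genes. Against the Sox9+ library, 2 of 10 measured were at least 2-fold lower in Lgr5+ cells and none higher, against 3.96% and 4.33% of all genes, with a median log2 ratio of -0.43. In Lgr5- cells 3 of 10 were at least 2-fold lower and 1, Rarb, higher, against 4.94% and 3.08% of all genes, with a median of -0.86. Meis1, a homeobox gene known from the proximal limb, stood at 4.92 FPKM in Sox9+ cells, 0.48 FPKM in Lgr5+ cells and 0.42 FPKM in Lgr5- cells, which is 4-fold and 4.17-fold lower. Meis2 stood at 3.21, 2.89 and 1.05 FPKM and was 2.05-fold lower in Lgr5- than in Sox9+ cells. Exons of other genes overlap 18.3% of the exonic bases of Meis1.

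**Figure D4:**
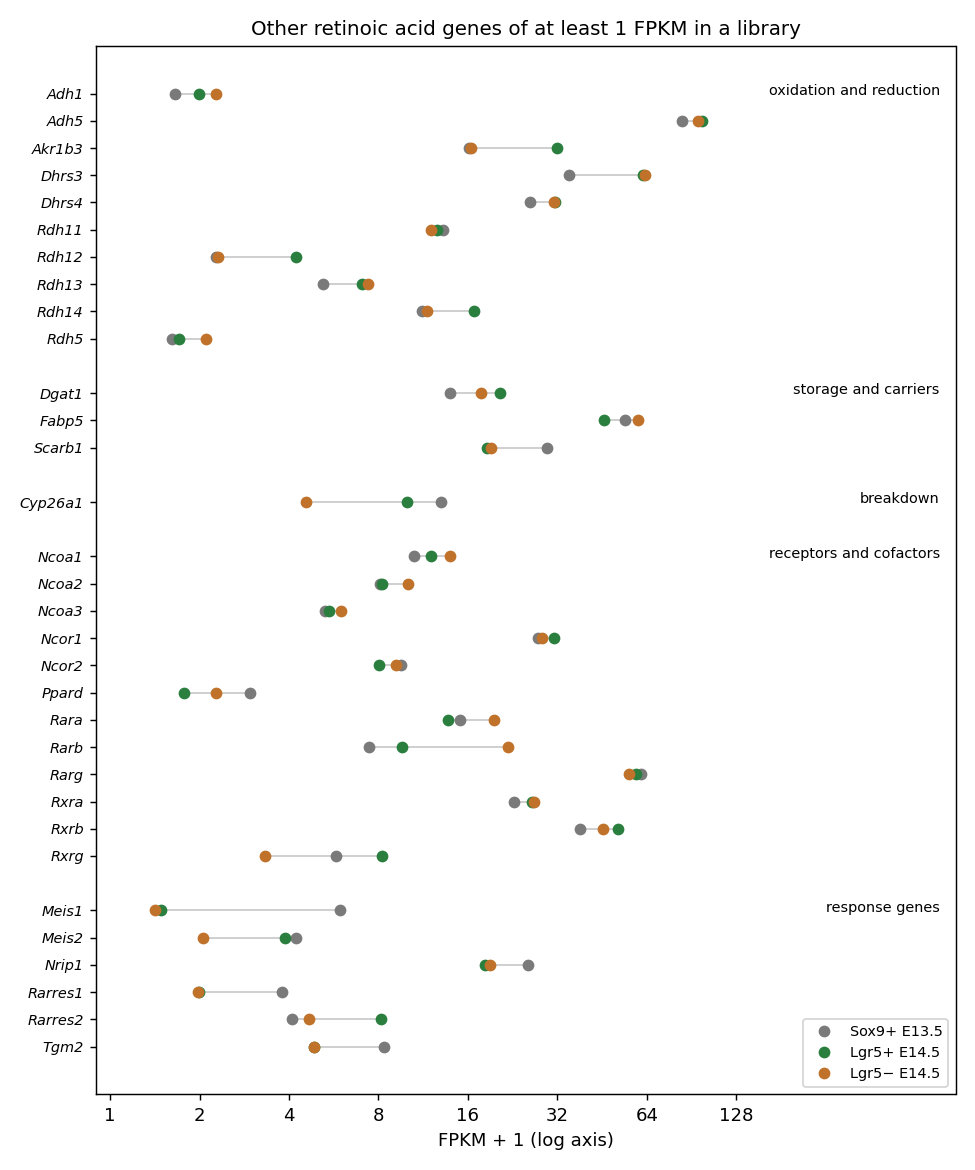
FPKM + 1 on a log axis (horizontal) of 32 of the 34 other retinoic acid genes that reached 1 FPKM in a library, grouped by role, with 1 point per library and a grey line from lowest to highest. Most rows are short; Rarb is highest in Lgr5- cells (20.9 FPKM), while Cyp26a1 and Rxrg are lowest there (3.56 and 2.31 FPKM).

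Genes with the most similar pattern were sought among 7026 genes of at least 10 FPKM in their highest library, by the Euclidean distance between log2(FPKM + 1) values centred on each gene's own mean over the 3 libraries. Over so few libraries many genes can share a pattern, and nothing is read from it about control. Nearest to Aldh1a2 were Runx3 (distance 0.26, at 12.5, 1.81 and 10.9 FPKM in the Sox9+, Lgr5+ and Lgr5- libraries), Runx2 (0.41), Dlx5 (0.43), Foxd2 (0.48) and the ribosomal RNA precursor Rn45s (0.52). Runx2, Runx3 and Dlx5 encode transcription factors known for their part in chondrocyte hypertrophy and osteoblast formation. No gene lay within 0.25 of Aldh1a2. Rn45s stood at 38179, 9924 and 33545 FPKM in those 3 libraries, so this sign of library make-up moved with Aldh1a2. With libraries scaled by their sum without Rn45s and the globin genes, the log2 ratio of Aldh1a2 in Lgr5+ cells was -2.37 over Lgr5- cells and -2.55 over Sox9+ cells. Rn45s was 6.43%, 1.86% and 6.13% of the summed FPKM in the Sox9+, Lgr5+ and Lgr5- libraries, so this scaling could move a ratio only slightly. The part of library make-up in the Aldh1a2 values was not tested.

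Nearest to Rbp4 were Rap1gap (distance 0.036), Igsf8 (0.039), Ift57 (0.041), Fam3c (0.06) and Fgfr2 (0.062), and 37 genes lay within 0.25. Fgfr2, a fibroblast growth factor receptor gene, stood at 70.3, 145.3 and 56.7 FPKM in the Sox9+, Lgr5+ and Lgr5- libraries. The nearly level pattern of Cyp26b1 was the commonest of the 3, with 1885 genes within 0.25, and its nearest were Tln1, Rbmxl1, Hscb, Dnlz and Tbc1d20 at distances of 0.0021 to 0.012.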

How the data were processed

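Expression was measured by RNA-seq in 3 libraries, 1 per sorted population. TrypLE and DNase freed the cells and a SMARTer kit for ultra-low input made cDNA from 10 ng of RNA, per the labels' protocols, and such amplification raises the noise of weak genes. The submitters' processing notes name HISAT2, mm10 and GRCm38. For the tool behind the values and for its annotation, nothing is given in the sources used here. The authors deposited 1 FPKM value per gene symbol, rounded to 2 decimals. A search of 4559 single-transcript genes for the step that 1 fragment would leave gave mean cosines of 0.0879 to 0.143 (1 for perfect steps), so no reads could be recovered.

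From these values log2 ratios of FPKM + 1 were computed for 3 pairs of libraries with Python 3.11.15, pandas 2.3.3 and numpy 2.4.6, and the arithmetic of the calls was tested on simulated data, which does not bear on the spread between replicates. A gene was measured at 1 FPKM or more in the higher library and different at 2-fold. The alternatives were pseudocounts of 0.1 and 0.5, no minimum or 10 FPKM, TPM, upper-quartile, median-of-ratios and quantile scaling, the sum without Rn45s and globin genes, and thresholds of 1.5-fold and 3-fold. Positions came from GENCODE M21 (GRCm38) and promoters from RefSeq (GRCm38.p6). Outside the 9 members, the rule named pathway genes different at 2-fold in a pair, the Rar and Rxr genes, the sort genes and the 5 genes nearest in pattern to Aldh1a2, Rbp4 and Cyp26b1. Dhrs3, Akr1b3, Rdh12, Cyp26c1, Ttr, Top2b, the serum protein genes and single tissue markers were named after their values were seen. Some genes of the lists enter the counts and sums but are not reported here by name. The members, lists and settings were chosen with earlier results of these data known.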

Additional observations from a re-analysis of the deposited data

How the results depend on the processing

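Of 254 ratios of the 9 genes recomputed under an alternative, 243 kept their call and moved by under 1.5-fold, 7 lost the call, 4 gained it and none that was called changed sign. The 254 include settings that change only a minimum or a threshold, which cannot move a ratio. The 7 losses came with the 3-fold threshold and the 4 gains were Aldh1a3 in the Lgr5+ over the Lgr5- library. Members at least 2-fold higher in the Lgr5+ than in the Lgr5- library numbered 2 with a pseudocount of 0.1, 2 with 0.5, 2 after rescaling to TPM and 2 with the 1.5-fold threshold, and 0 with the 3-fold threshold, in place of 1. With the 3-fold threshold, 2 were lower in that pair in place of 5, 0 higher in the Lgr5+ than in the Sox9+ library in place of 1, and 2 higher in the Lgr5- than in the Sox9+ library in place of 4. Among the other retinoic acid genes, those higher in the Lgr5+ than in the Lgr5- library numbered 5 with a pseudocount of 0.1, 4 with 0.5, 0 at 10 FPKM or more, 5 with TPM, 1 with the upper quartile, 6 at 1.5-fold and 0 at 3-fold in place of 2, and those lower numbered 0 at 3-fold in place of 2. Those higher in the Lgr5+ than in the Sox9+ library numbered 3 with either pseudocount, 3 with TPM, 2 with the sum without Rn45s and globin genes and 4 at 1.5-fold in place of 0, and those lower 4 with a pseudocount of 0.1, 0 at 10 FPKM or more, 1 with the sum without Rn45s and globin genes, 6 at 1.5-fold and 1 at 3-fold in place of 2. Those higher in the Lgr5- than in the Sox9+ library numbered 1 at 3-fold in place of 2, and those lower 6 with a pseudocount of 0.1, 5 with 0.5, 1 at 10 FPKM or more, 5 with TPM, 8 at 1.5-fold and 1 at 3-fold in place of 3. Other thresholds and minima change these counts by construction, and the cause of the other changes was not tested. Rescaling to TPM shifted the median log2 ratio of all measured genes by 0.14 for the Lgr5+ over the Sox9+ library and 0.11 for the Lgr5- over the Sox9+ library, the sum without Rn45s and globin genes by 0.12 for the latter, and the upper quartile by -0.15 for the Lgr5+ over the Lgr5- library. No paired analysis was possible because each population had 1 library. Depth is unknown, which limits what can be said of genes near or under 1 FPKM, such as Aldh1a1 and Aldh1a3.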
